A study of Rattus norvegicus with 6 samples.

Results

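A set of 29 marker genes of neurons, oligodendrocyte lineage cells and ciliated cells was read in cultures of rat primary astrocytes, as a measure of which other brain cell types the cultures may hold. The members were chosen by gene symbol, 17 for neurons, 11 for the oligodendrocyte lineage and 1, Foxj1, for ciliated cells, and all 29 were found among the 22608 symbols of the expression table. Poly(A) RNA sequencing compared 3 libraries of untreated control cells with 3 libraries of cells given β-hydroxybutyrate (BHB), the main ketone body of the blood in fasting. The column names give the BHB dose as 2 mM, and the sources used here do not give the duration, strain, age or brain region. Whether libraries of 1 group are separate cultures, animals or repeats of 1 culture is not labelled, so the p-values cover the spread between these libraries alone, and that spread may be technical.

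Primary astrocytes are grown from dissociated brain tissue, and other cells of that tissue can be carried along. Neurons are recognised by genes of their axonal and dendritic cytoskeleton, of synaptic vesicle release and of neuron-specific RNA binding. Oligodendrocytes arise from progenitors that carry the NG2 proteoglycan, pass a committed stage and then make the proteins of myelin, so that markers of early and late stages can be present or missing separately. Ependymal cells line the brain ventricles and bear many motile cilia, a program that depends on the transcription factor FOXJ1.

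Expression is given as FPKM, the sequenced fragments per unit of transcript length and of library size, so that levels can be compared between genes. The summed FPKM of a library lay between 354565 and 367448, and the number of reads behind it is unknown. Astrocyte genes were high, and 17 of 18 had a mean of at least 5 FPKM, led by the fatty acid binding protein gene Fabp7 (mean over 6 libraries 2311 FPKM) and the intermediate filament gene Gfap (1478 FPKM). The connexin gene Gjb6 was the exception, at a mean of 0.0883 FPKM. In these bulk samples, fewer cells of a type and less RNA per cell cannot be told apart.

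The 29 members held a small share of the summed FPKM, and such a share depends on which genes are listed. The 29 genes together made up 0.0958% to 0.104% of the summed FPKM of a library, against 1.66% to 1.76% for the 18 astrocyte genes and 1.27% to 1.37% for 14 fibroblast and mural cell genes. Tagln alone held 63.2% to 64.0% of the summed level of these 14. Wider lists of the 3 cell types held 0.115% to 0.124% (45 other neuron genes) and 0.0252% to 0.0290% (25 other oligodendrocyte lineage genes). The list of 28 other ciliated cell genes held 0.0200% to 0.0228%. Members ranged from Uchl1 at a mean of 125.6 FPKM to Ermn at 0.00623 FPKM. A mean of at least 5 FPKM was reached by 10 of 17 neuron genes, by Foxj1 and, of the 11 oligodendrocyte lineage genes, by Cnp. The median of the member means was 5.69 FPKM for neuron genes and 1.21 FPKM for oligodendrocyte lineage genes, against 199.3 FPKM for astrocyte genes.

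**Figure D1:**
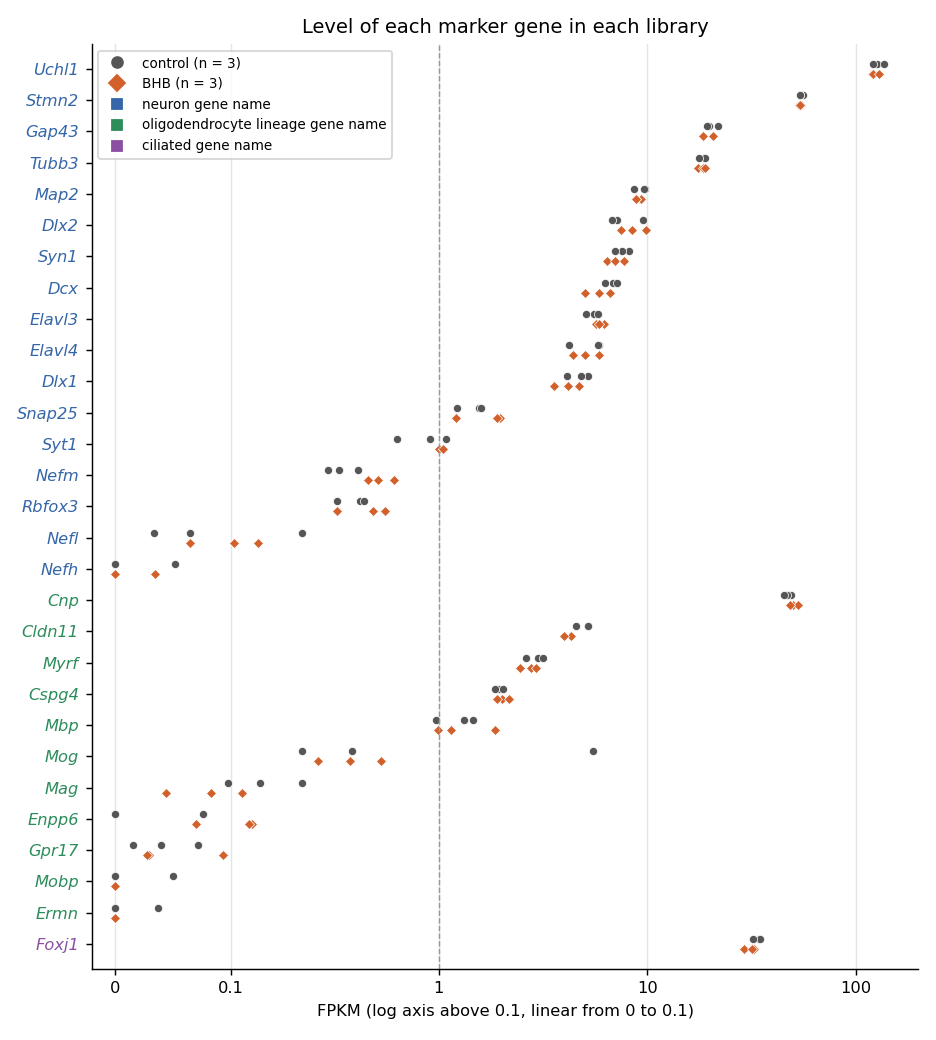
FPKM of each of the 29 marker genes in each of 3 control (grey circles) and 3 BHB (orange diamonds) libraries, with genes ordered by mean level within a cell type and a dashed line at 1 FPKM. Levels span from 0 to 137 FPKM, the groups lie close together for most genes, and Mog has a single control library at 5.47 FPKM far from its other values.

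**Figure D2:**
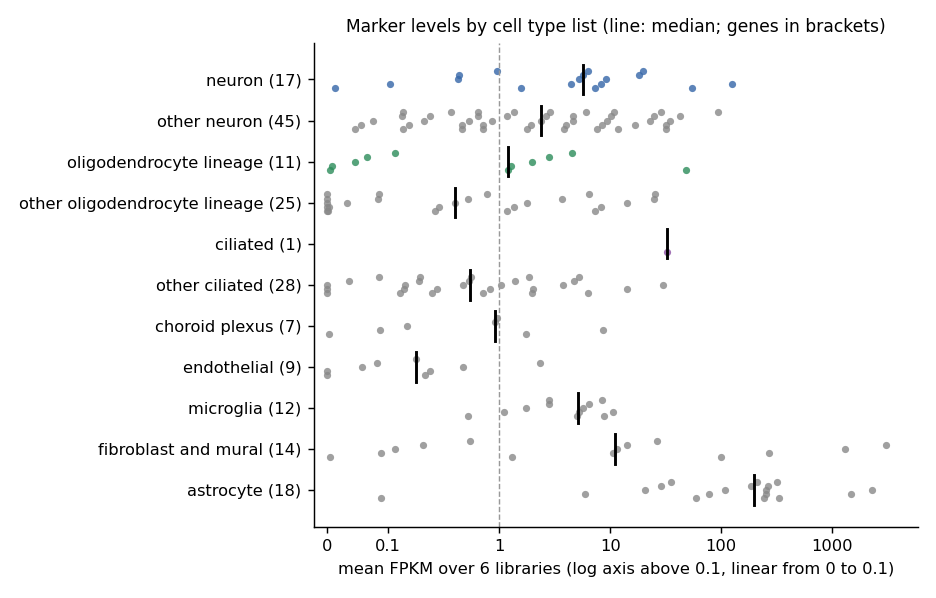
Mean FPKM over the 6 libraries of each gene (points) and the median (black line) in the member lists, in wider lists of the same cell types and in lists of other cell types. Astrocyte genes have a median of 199.3 FPKM, neuron members 5.69 FPKM and oligodendrocyte lineage members 1.21 FPKM.

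None of the members passed the test of BHB against control. Of the 29, 19 reached the minimum for testing (at least 1 FPKM in at least 3 libraries), with 13 neuron genes, 5 oligodendrocyte lineage genes and Foxj1, and the other 10 were too low. In the limma fit over 12373 genes, 0 of 19 members had an adjusted p under 0.05, where 0.0566% of all tested genes did, and the members' adjusted p ran from 0.881 to 0.985. At an unadjusted p under 0.05 there was 1 of 19, the tight junction gene Cldn11 with the lower values under BHB, against 5.59% of all tested genes in either direction and 2.14% in that direction. The 95% intervals of the log2 fold changes (BHB over control, of FPKM + 1) all lay between -0.40 and 0.43.

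**Figure D3:**
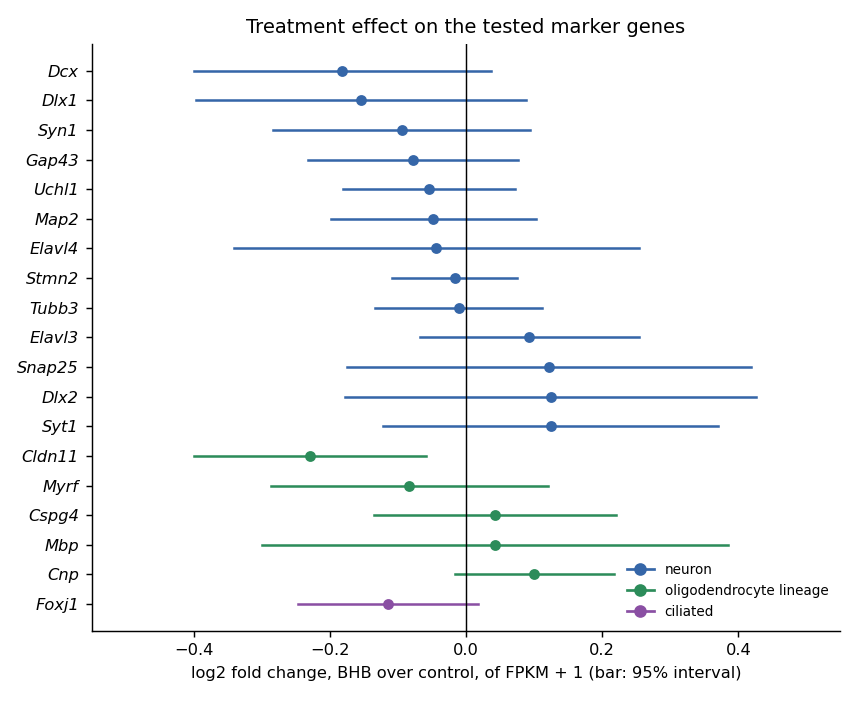
Log2 fold change of FPKM + 1, BHB over control, with its 95% interval from limma for the 19 tested markers, coloured by cell type. The values run from -0.23 (Cldn11) to 0.12 (Syt1 and Dlx2), and the interval of Cldn11 is the one that leaves out 0.

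The 8 neuronal genes of the cytoskeleton and axon growth ran from Stmn2, the highest, to the neurofilament gene Nefh. Stmn2, which encodes the microtubule regulator stathmin-2 of growing axons, was at 55.9, 54.1 and 54.3 FPKM in the 3 controls and at 53.6, 54.6 and 54.1 FPKM in the 3 BHB libraries. These 6 values overlapped between groups and varied by 1.45% (coefficient of variation, the SD over the mean), the least of all members. The log2 fold change was -0.02 (SE 0.0400, 95% interval -0.11 to 0.07, limma adjusted p = 0.965).

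Gap43, a growth cone protein gene, stood at 21.9, 19.7 and 19.4 FPKM in controls and at 18.5, 20.6 and 18.5 FPKM with BHB. Tubb3, the neuronal beta-tubulin, stood at 18.7, 18.8 and 17.7 FPKM in controls and at 17.5, 18.5 and 18.9 FPKM with BHB. In both genes the groups overlapped, with log2 fold changes of -0.08 (95% interval -0.23 to 0.08) for Gap43 and -0.01 (-0.13 to 0.11) for Tubb3. Map2, a dendritic microtubule protein gene, was at 9.77, 8.66 and 9.66 FPKM in controls and 9.36, 8.85 and 8.84 FPKM with BHB, again overlapping (log2 fold change -0.05, 95% interval -0.20 to 0.10).

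Dcx encodes doublecortin, a microtubule protein of migrating young neurons. It was at 6.82, 6.26 and 7.12 FPKM in controls and at 6.62, 5.03 and 5.88 FPKM with BHB. BHB 2 and BHB 3 held the lowest values, and BHB 1 lay inside the control range. Its log2 fold change of -0.18 (SE 0.0950, 95% interval -0.40 to 0.04) was the lowest of the neuron genes and did not pass (limma adjusted p = 0.890).

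The neurofilament genes, which encode the filaments of mature axons, stayed under 1 FPKM in every library. Nefh was listed at 0 in 4 libraries and reached 0.0518 FPKM at most, and Nefl ran from 0.0337 to 0.220 FPKM. Nefm, the medium chain, was at 0.332, 0.410 and 0.292 FPKM in controls and at 0.458, 0.612 and 0.510 FPKM with BHB. All 3 BHB values of Nefm lay above all 3 controls, a separation seen in 8.01% of genes above 0 but under the minimum for testing, and in the limma fit of all genes above 0 its adjusted p was 0.887.

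Among the genes of synaptic vesicle release, Syn1, which encodes the vesicle phosphoprotein synapsin-1, was the highest. It was at 8.16, 7.56 and 6.99 FPKM in controls and at 6.42, 6.98 and 7.69 FPKM with BHB, and the groups overlapped (log2 fold change -0.09, 95% interval -0.28 to 0.09). Snap25, a SNARE protein of vesicle fusion, averaged 1.46 ± 0.203 FPKM over the controls and 1.69 ± 0.416 FPKM over the BHB libraries (SD, n = 3). Syt1, the calcium sensor of release, averaged 0.871 ± 0.231 and 1.03 ± 0.0209 FPKM (SD, n = 3). Both genes were 0.12 higher with BHB on the log2 scale, which did not pass in limma (adjusted p = 0.917 for Snap25 and 0.910 for Syt1).

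Of the neuronal RNA-binding genes, a pair stood near 5 FPKM and the other far lower. Elavl3 and Elavl4 encode the related proteins HuC and HuD, which stabilise neuronal messenger RNAs. Elavl3 was at 5.52, 5.81 and 5.10 FPKM in controls and at 5.69, 6.17 and 5.85 FPKM with BHB, and Elavl4 at 4.22, 5.87 and 5.81 FPKM in controls and 5.02, 4.39 and 5.88 FPKM with BHB. Neither gene separated the groups (log2 fold change 0.09, 95% interval -0.07 to 0.25, for Elavl3 and -0.04, -0.34 to 0.25, for Elavl4). Rbfox3, which encodes NeuN, the nuclear marker of mature neurons, ran from 0.323 to 0.554 FPKM over the 6 libraries.

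Uchl1, a ubiquitin hydrolase abundant in neurons, was the highest member. Its values were 126.5, 136.8 and 120.9 FPKM in controls and 120.3, 120.6 and 128.7 FPKM with BHB, which overlapped (log2 fold change -0.05, 95% interval -0.18 to 0.07). Uchl1 alone made up to 49.3% of the summed level of the 17 neuron genes. That sum was 262.2 to 277.5 FPKM in controls and 258.5 to 271.9 FPKM with BHB, and 140.7 to 148.9 and 138.1 to 143.2 FPKM without Uchl1, overlapping both times.

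Dlx1 and Dlx2 are homeobox genes of forebrain interneurons and of the progenitors that make them. Dlx1 was at 5.19, 4.13 and 4.82 FPKM in controls and at 4.14, 4.71 and 3.57 FPKM with BHB. Dlx2 was at 9.56, 7.15 and 6.79 FPKM in controls and at 7.48, 8.41 and 9.88 FPKM with BHB. The lowest value of Dlx1 and the highest value of Dlx2 were both in BHB 3, and the groups overlapped in both genes. Their log2 fold changes had opposite signs, -0.15 (95% interval -0.40 to 0.09) and 0.12 (-0.18 to 0.43).

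Over the 13 tested neuron genes, 9 had a log2 fold change below 0 and 4 above, with a median of -0.043. Over all tested genes 48.5% lay below 0 and the median was 0.0029. With 1 library left out, the neuron median ran from -0.037 (without BHB 1) to -0.0063 (without control 2), and 7 to 9 of the 13 genes lay below 0. It was -0.019 without control 1, -0.024 without BHB 2 and -0.027 without control 3. Control 1 held the highest value of 5 of these 13 genes and BHB 1 the lowest value of 4.

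Among the oligodendrocyte lineage members, those of the early stages were low. Cspg4, the gene of the NG2 proteoglycan of progenitors, which pericytes also make, averaged 1.93 ± 0.0890 FPKM over the controls and 2.02 ± 0.129 FPKM over the BHB libraries (SD, n = 3). The pericyte and fibroblast gene Pdgfrb was at 26.8 and 26.2 FPKM in the same groups. Other genes of the fibroblast and mural list were low, with means of 1.31 FPKM for Rgs5, 0.204 FPKM for Abcc9 and 0.0881 FPKM for Kcnj8. The part of pericytes or fibroblasts in the Cspg4 level was not tested. Gpr17, a receptor of committed precursors, reached 0.0937 FPKM at most. Enpp6, a phosphodiesterase gene of newly forming oligodendrocytes, was at 0, 0 and 0.0766 FPKM in controls and at 0.0698, 0.126 and 0.123 FPKM with BHB, where the groups overlapped.

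Myrf, which encodes the transcription factor that switches on myelin genes, was at 2.61, 3.00 and 3.16 FPKM in controls and at 2.44, 2.76 and 2.91 FPKM with BHB. The groups overlapped, and the log2 fold change was -0.08 (95% interval -0.29 to 0.12, limma adjusted p = 0.917).

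Cnp, which encodes a phosphodiesterase of the myelin cytoplasm, stood apart from the other oligodendrocyte genes in level. It was at 48.7, 46.8 and 45.5 FPKM in controls and at 49.9, 53.1 and 48.4 FPKM with BHB. The lowest BHB value lay just under the highest control value. Its log2 fold change was 0.10 (SE 0.0510, 95% interval -0.02 to 0.22) and did not pass (limma adjusted p = 0.890).

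Cldn11, the claudin of myelin tight junctions, was the one tested member whose groups did not overlap. It was at 5.20, 5.16 and 4.56 FPKM in controls and at 4.0, 4.31 and 3.96 FPKM with BHB, so that all 3 BHB values lay below all 3 controls. Such a separation was found in 1 of 19 tested members, against 10.9% of all tested genes, or 4.45% in that direction. The log2 fold change of -0.23 (SE 0.0742, 95% interval -0.40 to -0.06) had an unadjusted p of 0.0142 and an adjusted p of 0.881 in limma. An exact permutation test of the group means, two-sided, gave p = 0.1, and a design of 3 against 3 can go no lower. With any 1 library left out the log2 fold change of Cldn11 stayed between -0.28 and -0.20.

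The other myelin genes were low. Mbp, the gene of myelin basic protein, averaged 1.25 ± 0.246 FPKM over the controls and 1.33 ± 0.463 FPKM over the BHB libraries (SD, n = 3). The log2 fold change of 0.043 turned to -0.11 without BHB 3 and to -0.05 without control 1. Mag, an adhesion protein of the inner myelin layer, ran from 0.0440 to 0.219 FPKM. Mobp, a protein of compact myelin, and Ermn, a cytoskeletal protein of late oligodendrocytes, were each listed at 0 in all libraries except control 2, where they were at 0.0507 and 0.0374 FPKM.

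Mog, the gene of a protein on the outer surface of myelin, differed from the rest. It was at 5.47 FPKM in control 1, at 0.220 and 0.382 FPKM in controls 2 and 3 and at 0.374, 0.263 and 0.529 FPKM in the 3 BHB libraries. Control 1 was 10.3-fold above the next highest library, while the other 2 controls lay among the BHB values. Cldn11 was the one other oligodendrocyte gene of 10 with its highest value in control 1, at 5.20 FPKM against 5.16 FPKM in control 2. A single library at 5 FPKM or more and at least 10-fold above the other 5 was found in 5 of 9268 genes that reached 5 FPKM, and Mog was the only such gene in control 1.

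Mog reached 1 FPKM in 1 library and was not tested. With a minimum of 1 FPKM on the mean it entered the fit at -0.68 on the log2 scale (limma adjusted p = 0.904). The deposited values of Mog carry more than 6 decimals, as do those of 57.4% of the tested genes, and the sources used here do not say how transcripts were summed into a gene.

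**Figure D4:**
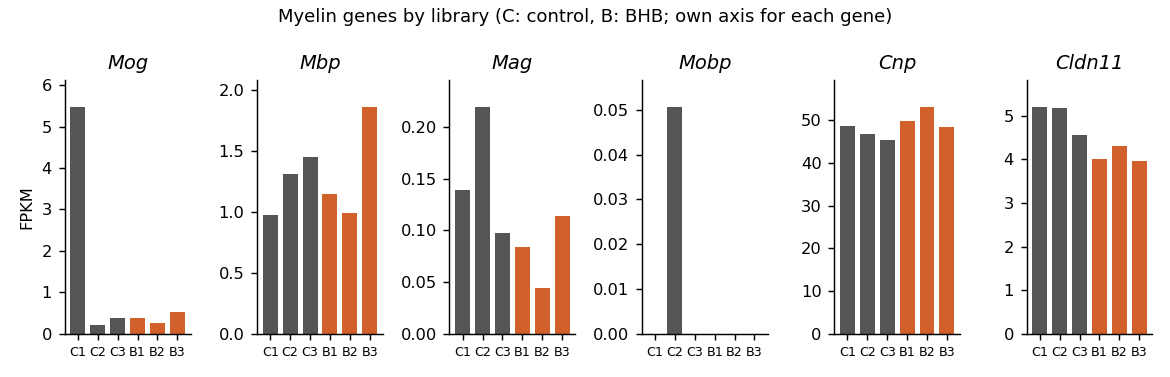
FPKM of 6 myelin genes in each library (C1 to C3 controls in grey, B1 to B3 BHB in orange), with an axis of its own for each gene that starts at 0. Mog is at 5.47 FPKM in control 1 and at most 0.529 FPKM elsewhere, while Mbp has its lowest value in control 1 and Cldn11 is lower in all BHB libraries than in all controls.

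Over the 5 tested oligodendrocyte genes, 3 lay above 0 and 2 below, with a median log2 fold change of 0.04. This median was -0.11 without BHB 3 and -0.05 without control 1. The summed level of the 11 genes was 57.3 to 65.0 FPKM in controls and 59.8 to 63.9 FPKM with BHB, of which Cnp made up to 83.2%. Without Cnp the sums were 11.8 to 16.3 FPKM in controls and 10.1 to 11.4 FPKM with BHB, which do not overlap, and without Cnp and Mog they were 10.9 to 11.7 and 9.77 to 10.9 FPKM, which do.

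Foxj1, the transcription factor gene of motile cilia, stood at 34.4, 34.9 and 32.1 FPKM in controls and at 29.2, 32.5 and 31.8 FPKM with BHB. It lay above 80.9% of tested genes in level. BHB 1 and BHB 3 held the lowest values, and BHB 2 lay inside the control range. Foxj1 had a log2 fold change of -0.11 (SE 0.0578, 95% interval -0.25 to 0.02), which did not pass (limma adjusted p = 0.887).

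**Figure D5:**
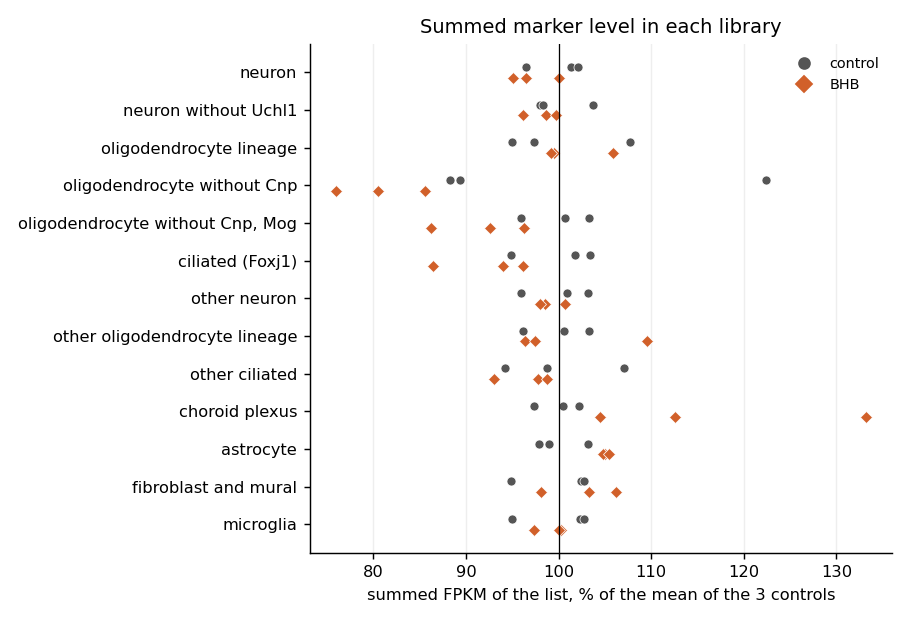
Summed FPKM of each marker list in each library, as a percentage of the mean of the 3 controls (grey circles, controls; orange diamonds, BHB). The groups overlap for the neuron genes, the 11 oligodendrocyte lineage genes, Foxj1 and the 3 wider lists of these cell types, and do not overlap for choroid plexus genes (Ttr included), astrocyte genes (Slc1a3 included) or oligodendrocyte genes without Cnp.

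Wider lists of the same cell types were read in the same fit. Of 45 other neuron genes 27 were tested and 0 passed in limma. Their median log2 fold change was -0.01, with 16 below 0 and 11 above. An unadjusted limma p under 0.05 was found in 3 of the 27, against 5.59% of all tested genes. The most abundant were Nsg2, an endosomal protein of neurons (mean 94.0 FPKM), the secretory granule gene Chgb (42.9 FPKM) and the calcium-binding protein gene Calb1 (34.9 FPKM).

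The smallest p among the other neuron genes belonged to Stmn3, a relative of Stmn2, and to Syp, a synaptic vesicle membrane protein. Stmn3 averaged 4.17 ± 0.428 FPKM over the controls and 5.04 ± 0.117 FPKM over the BHB libraries, and Syp 5.06 ± 0.302 and 4.19 ± 0.400 FPKM (SD, n = 3). The groups did not overlap in either, in opposite directions (log2 fold change 0.23 and -0.23, limma adjusted p = 0.881 for each). Such a separation was found in 3 of the 27 tested genes of this list, against 10.9% of all tested genes. Gad1, the enzyme that makes GABA, named after its values were seen, was the third gene with an unadjusted p under 0.05, at 1.57 and 1.13 FPKM (log2 fold change -0.26).

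Of 26 other oligodendrocyte lineage genes 25 were analysed, 10 were tested and 0 passed in limma, with a median log2 fold change of 0.02. An unadjusted limma p under 0.05 was found in 1 of the 10, against 5.59% of all tested genes. The most abundant were the lineage transcription factor gene Olig1 (mean 25.3 FPKM), the tetraspanin gene Tspan2 (24.7 FPKM) and Sox8 (14.1 FPKM). Nkx2-2, a transcription factor of the lineage, averaged 1.54 ± 0.0645 FPKM over the controls and 2.03 ± 0.275 FPKM over the BHB libraries (SD, n = 3), and its groups did not overlap. That held for 1 of the 10 tested genes of this list, against 10.9% of all tested genes. The log2 fold change of Nkx2-2, 0.25, had a limma adjusted p of 0.881. Olig2, another lineage factor, averaged 7.78 and 8.70 FPKM (0.15 on the log2 scale, limma adjusted p = 0.890). Listed at 0 in all 6 libraries were 5 genes, Gjb1, Klk6, Tmem125, Neu4 and Zfp488. Sox10, a transcription factor that defines the whole lineage, named after its values were seen, had a mean of 0.265 FPKM.

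Of 28 other ciliated cell genes 11 were tested and 0 passed in limma, with 7 below 0, 4 above and a median log2 fold change of -0.07. An unadjusted limma p under 0.05 was found in 0 of the 11, against 5.59% of all tested genes. Enkur (mean 29.6 FPKM), Tppp3 (14.2 FPKM) and the dynein regulatory gene Drc1 (6.33 FPKM) were the most abundant. The smallest p belonged to the dynein light chain gene Dynlrb2, at 1.16 and 1.61 FPKM (log2 fold change 0.28), and to Gmnc, a regulator of multiciliated cell fate, at 2.18 and 1.79 FPKM (-0.20). Tmem212, Rsph4a and Pifo were listed at 0 in all libraries. The 28 genes had a median level of 0.542 FPKM, against a mean of 32.5 FPKM for Foxj1.

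Mcidas, which encodes multicilin, a regulator upstream of Foxj1 in multiciliated cells, was named after its values were seen. It was at 0.303, 0.266 and 0.329 FPKM in controls and at 0.121, 0.0901 and 0.0421 FPKM with BHB. All 3 BHB values lay below all 3 controls. A separation in either direction was seen in 8.01% of genes above 0 but under the minimum for testing. In the limma fit of all genes above 0 the adjusted p of Mcidas was 0.540.

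Genes of further cell types were read for comparison. Fibroblast and mural cell genes were led by Tagln (mean 3067 FPKM) and Acta2 (1309 FPKM). Of these 14 genes 8 had a mean of at least 5 FPKM, while Lum (0.115 FPKM), Kcnj8 (0.0881 FPKM) and Dcn (0.0054 FPKM) were near 0. Microglia genes were led by C1qb (10.7 FPKM) and C1qa (8.71 FPKM). Among endothelial genes Cldn5 and Emcn were listed at 0 in all libraries, and Eng (2.34 FPKM) and Tek (0.471 FPKM) were the highest. The summed levels of these 3 lists overlapped between groups.

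Choroid plexus genes, which mark the epithelium next to the ependyma, summed to 11.2 to 11.7 FPKM in controls and 11.99 to 15.3 FPKM with BHB over 7 genes, which do not overlap. Without Ttr, the transthyretin gene of this epithelium, the sums were 11.2 to 11.7 FPKM in controls and 11.2 to 12.05 FPKM with BHB, which do. The most abundant of them were the water channel gene Aqp1 (mean 8.58 FPKM) and Folr1 (1.74 FPKM). Aqp1 alone made up 54.0% to 74.5% of the sum of the 7 genes. Kcnj13 had a mean of 0.963 FPKM, and Otx2 (0.147 FPKM), Clic6 (0.0862 FPKM) and Kl (0.00325 FPKM) were lower still. Ttr, named after its values were seen, was at 0.0914, 0.0550 and 0 FPKM in controls and at 0.872, 4.05 and 0.447 FPKM with BHB, and in the limma fit of all genes above 0 its adjusted p was 0.887. The part of such cells in the Foxj1 level was not tested. Astrocyte genes summed to 5903 to 6222 FPKM in controls and 6324 to 6356 FPKM with BHB, which do not overlap. Without the glutamate transporter gene Slc1a3, at 202.7 and 455.2 FPKM, the sums were 5696 to 6025 FPKM in controls and 5865 to 5904 FPKM with BHB, which do.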

How the data were processed

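The authors deposited FPKM values for 22608 gene symbols in 6 libraries, 3 control and 3 BHB, grouped by title. The submitters' processing notes name bcl2fastq 2.0, HISAT2, StringTie and DESeq2 and the build rn6, without roles. The sources used here do not give the annotation, strand setting or depth.

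Values were transformed as log2(FPKM + 1). Genes at 1 FPKM or more in at least 3 libraries (12373) were fitted with limma 3.58.1 in R 4.3.3 (eBayes with intensity trend, two-sided, Benjamini-Hochberg adjustment over all genes tested, threshold 0.05), with no block. The fit was also run on simulated normal noise, which meets its assumptions by design and cannot show that it suits these values. Symbols were matched to RefSeq (GRCr8), which held all 29 members, and no coordinates are given because the builds differ.

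The members and lists were chosen with earlier results of these data known. Besides the 3 member lists there were 8 lists of 159 symbols. Values by library are given for Foxj1, for members with a mean of at least 5 FPKM or an unadjusted p under 0.05, and for the 3 tested neuron and 3 oligodendrocyte genes with the smallest p. From wider lists the 3 most abundant genes and the 2 with the smallest p are named, and from other cell types the 2 most abundant and those at 0. Named outside this rule, after their values were seen, were Nefm, Enpp6, Mog, Slc1a3, Gjb6, Pdgfrb and the genes said to be so. Rgs5, Abcc9, Kcnj8, Dcn, Lum, Kcnj13, Clic6, Otx2 and Kl were also named in this way. Lists are described by counts and medians, with no test. Alternatives were another pseudocount, other minima, other scalings, no trend, a replicate block and leaving out each library.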

Additional observations from a re-analysis of the deposited data

How the results depend on the processing

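No member passed in any of the 13 alternatives run, and the lowest adjusted p of a member was 0.685 (limma). Over all genes, 7 were called, against 4 without the eBayes trend, where the cause was not tested, and 5 to 10 when a library was left out. The deviations of same-numbered control and BHB libraries from their group means correlated at -0.0899, 0.164 and -0.151. Across numbers, control 1 with BHB 3 gave 0.186 and control 3 with BHB 1 gave 0.203, and the remaining pairs were negative. Whether libraries share a batch was not tested. No label pairs them, so the numbers were not used as pairs, and the replicate block called 2 genes and no member. With no minimum, where all 17 neuron and 11 oligodendrocyte genes enter, the median log2 fold change was -0.010 for neuron and -0.018 for oligodendrocyte genes, of which 6 lay below 0. With the minimum on the mean, which adds Mog, the oligodendrocyte median was -0.021. Leaving out a library gave medians of -0.037 to -0.0063 for neuron genes and -0.11 to 0.064 for oligodendrocyte genes. It also turned 3 genes, with log2 fold changes of -0.036 to 0.019 for Tubb3, -0.17 to 0.041 for Elavl4 and -0.11 to 0.15 for Mbp. Of 246 values of single members, 238 kept their direction. Depth is unknown. The printed intervals are not adjusted for the number of genes tested and give no limit of detection. The interval of Cldn11 left out 0, while its limma adjusted p was 0.881. With 3 libraries a group, differences inside the intervals, and some beyond them, can go uncalled.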
